A study of Caenorhabditis elegans with 6 samples.

Results

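Transcript levels of 10 Caenorhabditis elegans genes for RNA-binding and splicing regulators were compared between RNA recovered from the PVD and OLL neurons and RNA of the whole animal. The genes were exc-7, unc-75, mbl-1, fox-1, asd-1, etr-1, msi-1, sup-26, cgh-1 and atx-2. Every probe set of a 1-colour Affymetrix C. elegans array whose single gene symbol was 1 of these names was taken, which gave 18 of the 22548 probe sets tested and 10 of 17118 named genes. The PVD and OLL group was poly(A) RNA pulled down with a 3X FLAG-tagged PAB-1, the poly(A) binding protein, made in these cells from the ser-2prom3B promoter fragment, and the whole animal group was total RNA from Trizol lysates. Animals of both groups were L3/L4 larvae raised at 25 °C on E. coli strain Na22. RNA of both was amplified with the NuGEN WT-Pico kit, and each group had 3 arrays. Signals are RMA values (log2). A signal was taken to exceed the no-target background where it lay above the 95th percentile of the 32 probe sets that match bacterial or yeast RNA on the same array. No worm strain is given in the labels. The kind of RNA and the tissue changed together between the groups and cannot be told apart. The neuronal titles name biological replicates and the whole animal titles give only a number, so the p-values rest on a spread between samples that may be partly technical.

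RNA-binding proteins decide which exons of a transcript are joined, how long an mRNA lasts, where it goes and how much protein is made from it. Neurons use several families of them to make isoforms that other tissues lack: ELAV and CELF proteins and the Fox-1 proteins bind short motifs in introns and promote or block neighbouring exons, and muscleblind proteins do so through zinc fingers. Others act on finished mRNA in the cytoplasm, among them Musashi, the DEAD-box helicase of the DDX6 family found in P bodies, and ataxin-2, which binds poly(A) binding protein. PVD is a highly branched sensory neuron of the body wall, and sup-26 is among the RNA-binding protein genes known to be needed for its dendrites. A gene-level probe set reads the amount of a transcript and not which exons were joined.

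Of the 18 probe sets, 9 were higher in the PVD and OLL samples and 0 lower at a limma adjusted p under 0.05. Over all probe sets tested, 13.6% were called, 9.31% were higher and 4.28% lower. With no adjustment, 12 of the 18 were higher and 0 lower at a p under 0.05. Read from brightest probe sets, 7 of the 10 genes were higher and 0 lower at that limma p. Of all 17118 genes, 2873 were higher and 2520 lower at it. By gene, each read from its brightest probe set, 6 of 10 rose and 0 fell, against 12.8% called, 8.1% higher and 4.66% lower of all genes. Those that rose were asd-1, atx-2, sup-26, exc-7, mbl-1 and etr-1, and those not called were msi-1, unc-75, fox-1 and cgh-1. The median log2 difference was 1.22 over the 10 genes and -0.07 over all genes. Many of all genes lay near background. Among 11544 genes with a probe set above the no-target background on all 3 arrays of a group, limma called 1527 higher and 639 lower. Their median was 0.18. All 10 regulators were in that set, with 6 higher and a median of 1.22. The brightest probe sets of exc-7, which was called higher, unc-75 and fox-1 passed that filter only through the PVD and OLL arrays. Since a gene can enter through the group where it is high, these counts are a description and no separate support. Signals of the PVD and OLL arrays lay wholly above those of the whole animal on 12 of the 18 probe sets, and below them on 0, while 6 overlapped. Of all probe sets, 40.5% did not overlap, 20.4% with PVD and OLL higher and 20.1% with them lower.

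**Figure D1:**
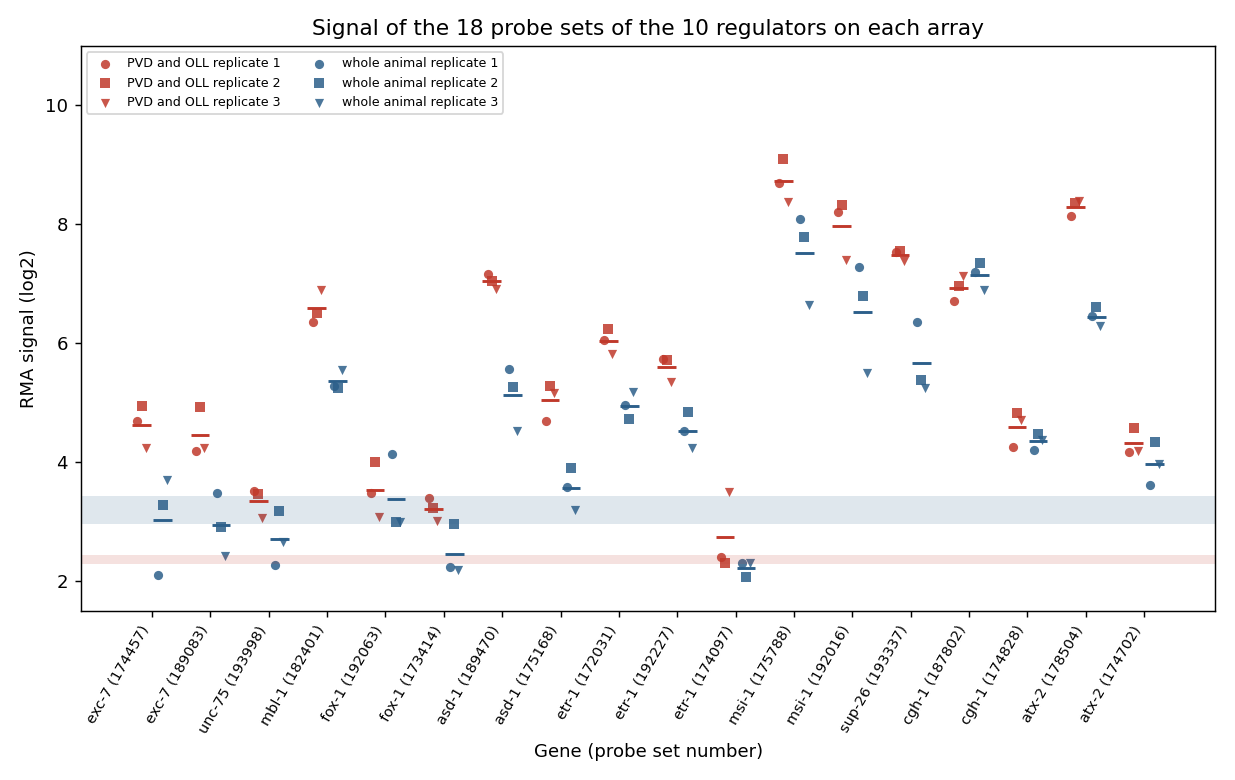
RMA signal (log2) of the 18 probe sets on each of the 6 arrays, with PVD and OLL in red to the left of whole animal in blue, marker shape for the replicate and a bar for the group mean. Shaded bands show the range over arrays of the no-target background level, 2.28 to 2.44 for PVD and OLL and 2.95 to 3.43 for whole animal; atx-2 (178504) and asd-1 (189470) show the groups well apart, and both cgh-1 probe sets show them overlapping.

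asd-1, whose protein belongs to the Fox-1 family and acts with FOX-1 on exon choice in egl-15, had the largest difference of the 10. Its brighter probe set (189470_at) read 7.16, 7.04 and 6.91 (log2) on PVD and OLL replicates 1, 2 and 3, against 5.57, 5.26 and 4.53 on the whole animal replicates. The lowest neuronal array was above the highest whole animal array. The difference was 1.92 ± 0.29 (log2, limma moderated SE, 3 against 3 arrays, adjusted p = 0.00864), or 3.78-fold higher. The second probe set (175168_at) read 4.69, 5.27 and 5.17 on the PVD and OLL arrays, against 3.58, 3.90 and 3.19 on the whole animal arrays. It rose by 1.49 ± 0.26 (limma adjusted p = 0.0133), with no overlap between groups.

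fox-1, the founding gene of that family and an X-chromosome signal in sex determination, was not called. Probe set 192063_s_at read 3.48, 4.01 and 3.08 on the PVD and OLL arrays, against 4.14, 2.99 and 2.99 on the whole animal arrays. These groups overlapped, with whole animal replicate 1 the highest of the 6, and the difference was 0.15 (95% interval -0.74 to 1.03, limma adjusted p = 0.807). Its sign turned when PVD and OLL replicate 2 was dropped (-0.10) or when replicate 2 or 3 of the whole animal was (-0.04 for each), and with arrays centred on their medians (-0.05). Probe set 173414_s_at read 3.39, 3.23 and 3.00 in PVD and OLL and 2.23, 2.95 and 2.18 in whole animal, where 0 of 3 arrays exceeded the no-target background. Against that background it was at least 1.04-fold higher (limma adjusted p = 0.0963). On 192063_s_at, 2 of 3 whole animal arrays exceeded that background, which limits what a whole animal gap to it can show. The per-array gap between the brightest probe sets of asd-1 and fox-1 was 3.68, 3.04 and 3.84 in PVD and OLL and 1.43, 2.26 and 1.54 in whole animal. The gap was wider in PVD and OLL by 1.77, with an exact two-sided permutation p of 0.1, the smallest that 3 against 3 arrays allow, and 0.2 after Benjamini-Hochberg adjustment over 2 pairs of related genes chosen after their values were seen.

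mbl-1, the muscleblind gene, which acts in muscle and in neurons, had 1 probe set (182401_at). It read 6.36, 6.50 and 6.90 on the PVD and OLL arrays, against 5.28, 5.25 and 5.54 on the whole animal arrays. Every neuronal array exceeded every whole animal array, and the difference was 1.23 ± 0.22 (limma adjusted p = 0.0137), a 2.34-fold rise. Without PVD and OLL replicate 2 the difference was 1.27 and the adjusted p 0.0595.

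exc-7, the ELAV-family gene, needed in the excretory canal and active in neuronal splicing, rose on both probe sets. Probe set 174457_at read 4.69, 4.95 and 4.24 on the PVD and OLL arrays, against 2.09, 3.27 and 3.69 on the whole animal arrays, and 189083_at read 4.19, 4.92 and 4.23 in PVD and OLL and 3.48, 2.90 and 2.42 in whole animal. The groups did not overlap on either, but on each probe set only 1 of 3 whole animal arrays exceeded the no-target background. The differences were 1.61 ± 0.41 (limma adjusted p = 0.0428) and 1.51 ± 0.33 (adjusted p = 0.0255). Dropping 1 array at a time ended the call of 174457_at 5 of 6 times, at 0.116 and 0.145 without PVD and OLL replicates 1 and 2, 0.0536 without replicate 3, and 0.0662 and 0.0889 without whole animal replicates 1 and 2. That of 189083_at ended on dropping PVD and OLL replicate 1 (0.0593), PVD and OLL replicate 2 (0.0958) or whole animal replicate 2 (0.0766).

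etr-1, a CELF-family gene with a role in muscle, had 3 probe sets. The brightest (172031_x_at) read 6.06, 6.24 and 5.82 in PVD and OLL and 4.96, 4.72 and 5.18 in whole animal, and 192227_s_at read 5.73, 5.72 and 5.34 in PVD and OLL and 4.53, 4.84 and 4.23 in whole animal. Both separated the groups, by 1.09 ± 0.21 (limma adjusted p = 0.0193) and 1.07 ± 0.23 (adjusted p = 0.0257). The third (174097_at) lay near background, at 2.41, 2.30 and 3.50 in PVD and OLL and 2.30, 2.06 and 2.31 in whole animal, where 2 of 3 PVD and OLL arrays and 0 of 3 whole animal arrays exceeded it, so no fold is given (limma adjusted p = 0.313). Names ending in _x_at or _s_at mark probe sets that can match several transcripts. The first 2 probe sets each lost the call on dropping PVD and OLL replicate 1 (0.0703 and 0.0915), PVD and OLL replicate 2 (0.0884 and 0.106) or whole animal replicate 1 (0.0542 and 0.0693). For 172031_x_at, dropping whole animal replicate 2 did so too (0.0587).

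unc-75, a CELF-family gene that acts in the nervous system, was read by 1 dim probe set (193998_at). It gave 3.51, 3.46 and 3.06 on the PVD and OLL arrays, against 2.27, 3.18 and 2.66 on the whole animal arrays. PVD and OLL replicate 3 lay below whole animal replicate 2, so the groups overlapped. All 3 neuronal arrays and 0 of 3 whole animal arrays exceeded the no-target background. The measured means were 3.34 ± 0.25 in PVD and OLL and 2.70 ± 0.45 in whole animal (SD, n = 3 each), at least a 1.14-fold difference against that background (limma adjusted p = 0.157). Its gap to etr-1, the second pair of related genes compared, is not read, since unc-75 had only a bound in whole animal.

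**Figure D2:**
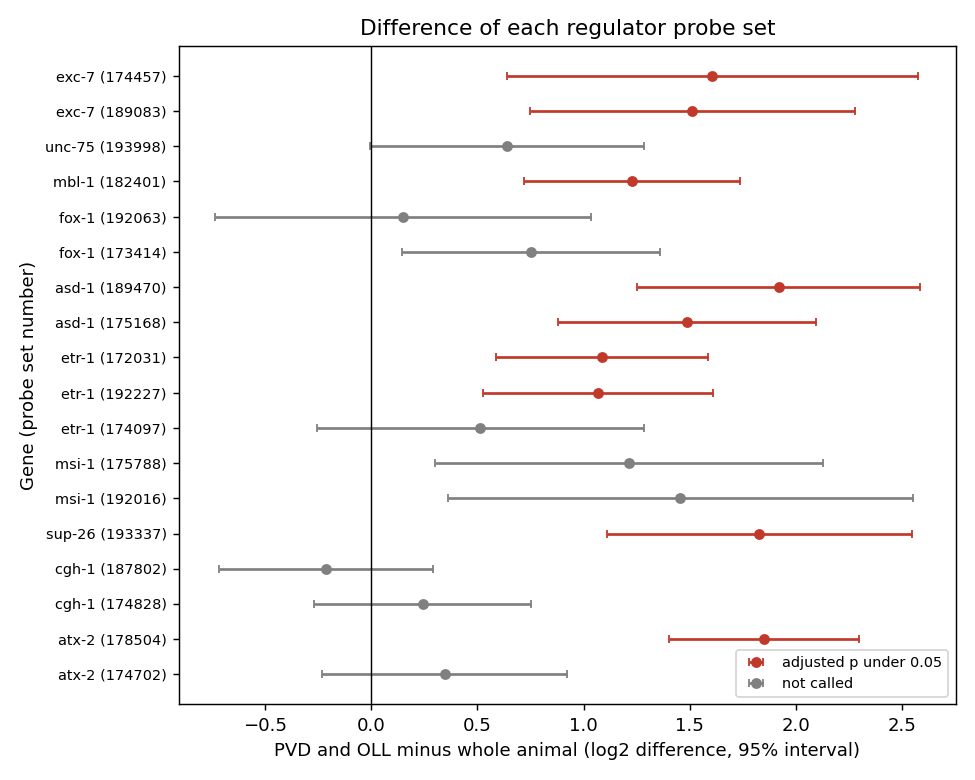
Log2 difference, PVD and OLL minus whole animal, of each of the 18 probe sets with its 95% interval from limma; red points passed an adjusted p of 0.05 and grey points did not. The points of unc-75, fox-1 (173414) and etr-1 (174097) are measured differences from whole animal signals at background. The red points run from 1.07 to 1.92, and 1 grey point, cgh-1 (187802), lies below 0.

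Among the regulators of finished mRNA, atx-2 and sup-26 rose. atx-2 encodes ataxin-2. Its brighter probe set (178504_at) read 8.14, 8.36 and 8.39 on the PVD and OLL arrays, against 6.45, 6.61 and 6.29 on the whole animal arrays. The arrays of each group lay close together and the groups far apart, and the rise was 1.85 ± 0.19 (limma adjusted p = 0.00439), or 3.60-fold, with the lowest adjusted p of the 18. The second probe set (174702_at) read 4.17, 4.57 and 4.19 in PVD and OLL and 3.61, 4.33 and 3.96 in whole animal. There the groups overlapped, and the difference was 0.35 (95% interval -0.23 to 0.92, adjusted p = 0.36). The per-array gap between the 2 probe sets ran from 3.80 to 4.20 in PVD and OLL and from 2.27 to 2.85 in whole animal. The exact permutation p for that gap was 0.1, the smallest possible, and 0.45 adjusted over the 9 pairs of probe sets compared within genes. Which ends or isoforms of the transcript the 2 probe sets read was not examined.

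sup-26 encodes a protein with RNA recognition motifs that represses translation of tra-2. Its probe set (193337_s_at) read 7.53, 7.55 and 7.38 on the PVD and OLL arrays, against 6.36, 5.38 and 5.25 on the whole animal arrays. The neuronal arrays agreed within 0.2 while the whole animal arrays spread over about 1 on the log2 scale, and the groups did not overlap. It rose by 1.83 ± 0.31 (limma adjusted p = 0.0117), or 3.55-fold, and the adjusted p was 0.0562 without PVD and OLL replicate 2.

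msi-1, the Musashi gene, which acts in memory and male mating, was not called. Probe set 175788_s_at read 8.69, 9.11 and 8.37 on the PVD and OLL arrays, against 8.09, 7.79 and 6.65 on the whole animal arrays, and 192016_s_at read 8.21, 8.32 and 7.40 in PVD and OLL and 7.28, 6.79 and 5.50 in whole animal. Neither overlapped between groups, and replicate 3 was the lowest array of its group on both. The differences were 1.21 ± 0.39 and 1.45 ± 0.47, with a limma adjusted p of 0.0807 for each. With 1 array left out, neither was called in any of the 6 runs (limma adjusted p from 0.0734 to 0.233 and from 0.065 to 0.224). With replicate 3 of both groups left out, the differences were 0.96 and 1.23 and the adjusted p-values 0.0329 and 0.0165. In that setting the count of all probe sets called higher also went from 2099 to 3300.

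cgh-1, the DDX6-family helicase of P bodies and of germ granules, was called on neither probe set. The brighter (187802_at) read 6.70, 6.96 and 7.13 on the PVD and OLL arrays, against 7.19, 7.35 and 6.90 on the whole animal arrays, and 174828_at read 4.26, 4.82 and 4.71 in PVD and OLL and 4.21, 4.48 and 4.37 in whole animal. The groups overlapped on both. The differences were -0.21 (95% interval -0.72 to 0.29, limma adjusted p = 0.515) and 0.24 (-0.27 to 0.75, adjusted p = 0.464). The first turned to 0.86 when arrays were centred on their bioB and bioC spike controls and the second to -0.12 after repeated quantile normalization and after cyclic loess, so no direction is given.

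**Figure D3:**
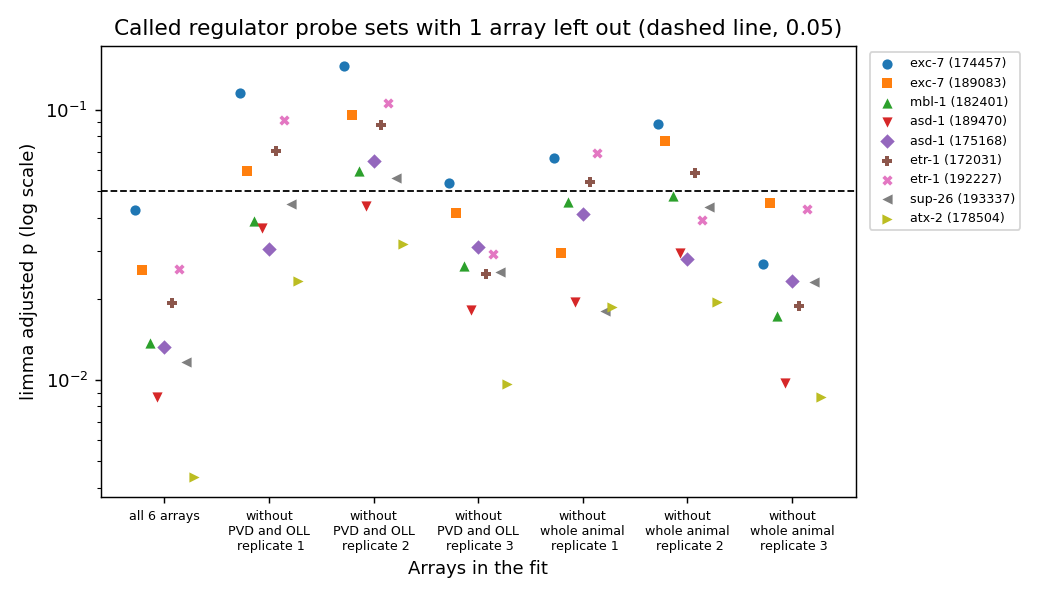
Adjusted p from limma (log axis) of the 9 called probe sets with all 6 arrays and with each array left out in turn; the dashed line is 0.05. Without PVD and OLL replicate 2, atx-2 (178504) and asd-1 (189470) are the 2 probe sets below the line.

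The calls rested unevenly on single arrays. atx-2 (178504_at) and asd-1 (189470_at) kept their calls whichever of the 6 arrays was dropped (limma adjusted p up to 0.032 and 0.0441). Without PVD and OLL replicate 2 the count of called probe sets was 2, without PVD and OLL replicate 1 it was 5, and without whole animal replicate 1 or 2 it was 6 each. The other asd-1 probe set lost its call without PVD and OLL replicate 2 (0.0647). All 9 called probe sets kept their sign in these runs and under the scalings tried, while 3 of them, 174457_at of exc-7 and the called pair of etr-1, passed neither repeated quantile normalization (adjusted p = 0.0823, 0.0546 and 0.127) nor cyclic loess (0.0686, 0.0584 and 0.114).

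Other genes of RNA control were read from their brightest probe sets. Over all 17118 genes read so, 8.1% rose and 4.66% fell, and 2873 were higher and 2520 lower at an unadjusted limma p under 0.05. Of 31 measured genes for other splicing regulators, 9 rose and 0 fell, with a median log2 difference of 0.39 (14 and 0 at an unadjusted p under 0.05). The largest were ptb-1, the polypyrimidine tract-binding protein gene, at 1.74 ± 0.34 (limma adjusted p = 0.0192), sup-12, whose protein acts with ASD-1 and FOX-1 on egl-15, at 1.52 ± 0.33 (adjusted p = 0.0249), and tdp-1, the TDP-43 gene, at 1.41 ± 0.22 (adjusted p = 0.00948, with the other probe set at 0.79 and not called). For ptb-1, 1 of 3 whole animal arrays exceeded the no-target background. The count was 4 after repeated quantile normalization, 5 after cyclic loess, 2 without PVD and OLL replicate 1, 0 without PVD and OLL replicate 2 (limma), and 3 and 4 without whole animal replicates 1 and 2.

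Factors of mRNA decay and P bodies, where CGH-1 works, gave 2 rises and 0 falls among 19 genes, with a median of 0.36 (5 and 0 unadjusted). The rises were 10.5% of the list, near the 8.1% of all genes. They were ain-1, a GW182-family gene of the microRNA complex, at 1.21 ± 0.21 (limma adjusted p = 0.0118), and ccf-1, a deadenylase gene, at 1.05 ± 0.28 (adjusted p = 0.0449), whose call ended whichever array was dropped (adjusted p up to 0.133). The other probe set of ccf-1 was 1.99 higher (adjusted p = 0.00633). ain-1 had 1 further probe set that was 1.497 higher (adjusted p = 0.00861) and 1 that differed by 0.91 (adjusted p = 0.206). The P-body partners of CGH-1 in the list were not called: car-1 differed by 0.24, patr-1 by 0.38, ifet-1 by 0.03 and dcap-2 by 0.63. The count of rises by limma was 0 on dropping PVD and OLL replicate 1 or 2, 1 on dropping any 1 whole animal array, 1 after repeated quantile normalization, cyclic loess or centring on medians, and 17 with spike centring. The list median was 0.18, 0.16 and 0.16 under those first 3 scalings and 1.43 with spike centring.

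Translation and localization factors went both ways, with 3 rises and 3 falls among 21 genes and a median of 0.33. Rises and falls were 14.3% of the list each, against 8.1% and 4.66% of all genes. larp-5, a La-related gene, rose by 1.93 ± 0.28 (limma adjusted p = 0.008, kept whichever array was dropped), with the other probe set at 1.18 (adjusted p = 0.0591). pab-1, whose protein binds ataxin-2 and carried the tag, rose by 1.36 ± 0.33 (adjusted p = 0.0351), and its other probe sets differed by 0.92 (adjusted p = 0.0408) and 0.51 (adjusted p = 0.213). Whether RNA of the tagged transgene was read by these probe sets was not tested. ncl-1, a repressor of nucleolar size, rose by 1.03 ± 0.23. Those that fell were the Y-box genes cey-3 (-1.42 ± 0.37) and cey-2 (-1.15 ± 0.27) and the eIF4E gene ife-1 (-1.03 ± 0.22), all 3 known from the germline, with adjusted p-values of 0.0444, 0.0324 and 0.0232 that exceeded 0.05 on dropping 5, 4 and 3 of the 6 arrays in turn. Centred on those spike controls, ife-1 was higher by 0.04, and the list had 12 rises and 0 falls. It had 1 rise and 0 falls on dropping PVD and OLL replicate 1, PVD and OLL replicate 2 or whole animal replicate 2, and 2 of each on dropping whole animal replicate 1.

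Germline RNA regulators, some of which share P granules with CGH-1, had 0 rises and 1 fall among 31 genes and a median of -0.13. The fall was 3.23% of the list, against 4.66% of all genes. The member that fell was pgl-3, a P granule gene, at -1.18 ± 0.27 (limma adjusted p = 0.0318, not kept on dropping 5 of the 6 arrays, up to 0.105). At an unadjusted limma p under 0.05, 1 was higher and 5 were lower, against 2873 higher and 2520 lower of all 17118 genes. The direction of this list was not stable: without PVD and OLL replicate 3 it had 2 rises, 0 falls and a median of 0.01, with both replicates 3 left out 3 rises, 1 fall and a median of 0.09, with array weights 3 rises, 2 falls and a median of 0.04, and with spike centring 12 rises, 0 falls and a median of 0.94. It had 0 rises and 4 falls with centring on medians, 0 and 3 after repeated quantile normalization or cyclic loess, 1 and 0 without whole animal replicate 1, and 0 of each without PVD and OLL replicate 1 or whole animal replicate 2.

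**Figure D4:**
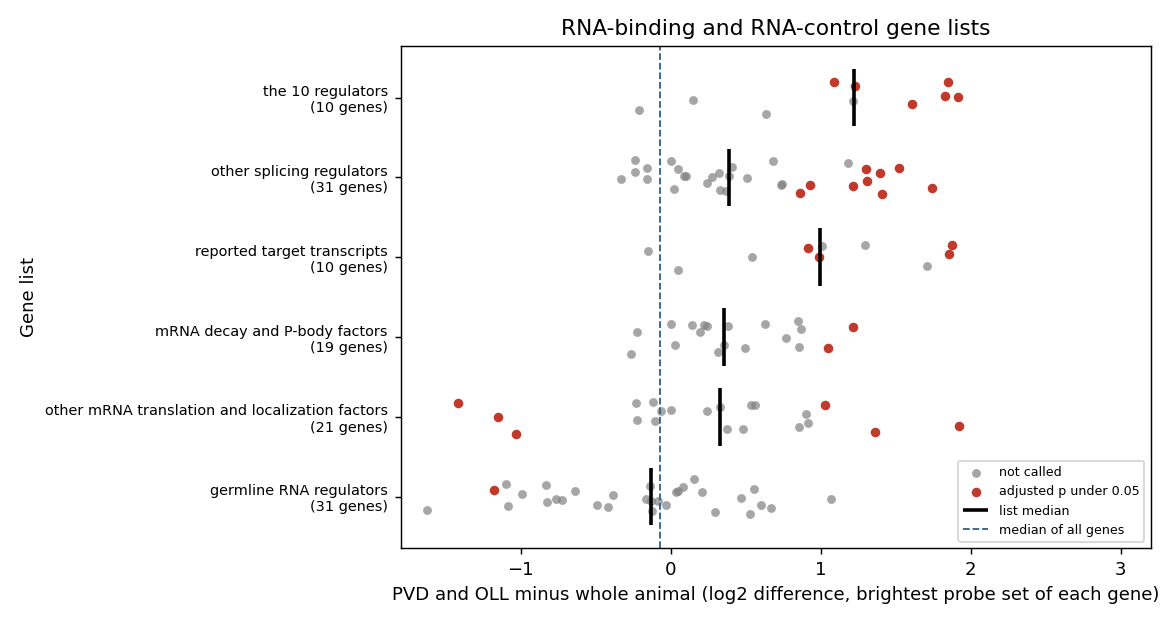
Log2 difference, PVD and OLL minus whole animal, of each gene (brightest probe set) in the set of 10 regulators and in 5 other lists, with red for an adjusted p under 0.05, a black bar for the list median and a dashed line for the median of all genes. The medians run from 1.22 for the 10 regulators to -0.13 for germline RNA regulators.

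Among 10 measured transcripts reported as targets of these proteins, 4 rose (40%, against 8.1% of all genes) and 0 fell, with a median of 0.998 (8 and 0 unadjusted). They were the kinase gene sad-1 (1.88 ± 0.45), the alpha-tubulin gene mec-12 (1.86 ± 0.44), tra-2 (0.99 ± 0.26) and the kinesin adaptor gene unc-16 (0.91), with limma adjusted p-values of 0.0352, 0.0328, 0.044 and 0.0397. For sad-1 and mec-12, 2 of 3 whole animal arrays exceeded the no-target background. Whole animal replicate 3 read 2.57 and 2.69, under its background level of 2.95, which limits what these 2 differences can show. The other probe sets of sad-1 and tra-2 exceeded the no-target background on 0 of 3 whole animal arrays, were at least 1.16-fold and 1.11-fold higher in PVD and OLL, and were not called (limma adjusted p = 0.118 and 0.187). egl-15, a target of ASD-1, FOX-1 and SUP-12, differed by 1.29 with overlapping groups (adjusted p = 0.137), unc-32, a target of UNC-75, by 0.05 (adjusted p = 0.893), and xol-1, a target of FOX-1, exceeded the no-target background on no array. Of these 10, limma called 0 after repeated quantile normalization, after cyclic loess, or on dropping either of PVD and OLL replicates 1 and 2, and 1 on dropping either of whole animal replicates 1 and 2. Such transcripts differ between tissues in isoform as well as in amount, and isoforms were not measured here.

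Markers of PVD and OLL, of neurons and of other tissues were read in the same way. Of all genes, 8.1% rose and 4.66% fell. Of 12 PVD and OLL markers 8 rose and 0 fell, with deg-3, des-2 and mec-3 higher by 4.27, 4.09 and 2.23, while eat-4, F49H12.4 and ser-2 had means under 3 in both groups. Of 14 pan-neuronal markers 8 rose and 0 fell, and their mean log2 signal ran from 6.19 to 6.93 over the PVD and OLL arrays and from 5.20 to 5.47 over the whole animal arrays; rab-3 rose by 2.12. Of 14 body wall muscle markers 2 rose and 1 fell, with mean signals of 8.71 to 8.96 in PVD and OLL and 8.30 to 8.77 in whole animal, and unc-54 read 10.68 in PVD and OLL and 10.21 in whole animal. Hypodermal markers had 4 rises and 1 fall of 10 (7.22 to 7.81 in PVD and OLL, 6.57 to 7.29 in whole animal), intestinal markers 1 rise and 2 falls of 9 (6.96 to 7.28 in PVD and OLL, 7.28 to 7.82 in whole animal), and germline markers 0 rises and 1 fall of 12 (4.73 to 5.59 in PVD and OLL, 5.59 to 6.05 in whole animal), with gld-1 at 6.97 in PVD and OLL and 7.11 in whole animal. Most of the germline markers were also in the list of germline RNA regulators, and unc-64 was in both the pan-neuronal and target lists. The hypodermal rises were bli-1 (2.15), nhr-23 (1.65), lin-26 (1.56) and rol-6 (1.15), and the intestinal rise was cpr-1 (2.09). The intestinal falls were vit-2 and vit-6 (-3.09 and -3.66), the hypodermal fall was col-19 (-2.92) and the germline fall was rme-2 (-2.24). Each of vit-2, vit-6, col-19 and rme-2 was highest on whole animal replicate 3. Whether the animals' stage differed between or within the groups was not tested. Muscle, neurons and germ cells all use some of the 10 regulators, and the part of these cells in the differences was not tested. In such bulk RNA a larger share of a cell type and more RNA per cell cannot be told apart.

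Of genes outside the 10, those whose 6 array values, each centred on the gene's mean, lay nearest to a called regulator were mab-10 for asd-1 (Euclidean distance 0.14 on the log2 scale over 6 arrays), Y50D4A.1 for mbl-1 (0.11) and nhr-112 for etr-1 (0.15). abu-13 lay nearest to atx-2 (0.17), miz-1 to sup-26 (0.26) and pir-2 to exc-7 (0.50). These are descriptions over arrays that hold the group difference itself.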

How the data were processed

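The authors deposited 1 log2 value per probe set and array for 3 PVD and OLL and 3 whole animal samples. These values were made with RMA, per the submitters' processing notes. RMA is meant to correct background, equalise the arrays' distributions and summarise the probes of a set. The sources used here do not give the RMA software, its version or the log base. Values ran from 1.21 to 13.9 and were read as log2. The deposited distributions were not equal. PVD and OLL replicates 1, 2 and 3 had medians of 3.86, 3.89 and 3.72. Those of whole animal replicates 1, 2 and 3 were lower, at 3.61, 3.59 and 3.67. Repeating quantile normalization took the probe sets called higher from 2099 to 1192 and those called lower from 964 to 1007. Scanner files and probe set coordinates were not used here. Array medians lay between 3.59 and 3.89, and 73.2% to 77.5% of probe sets on PVD and OLL arrays and 53.4% to 65.04% on whole animal arrays exceeded the no-target background. The number of arrays limits the precision.

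The 77 control probe sets were left out. Symbols came from the array annotation, updated through RefSeq gene IDs (WBcel235, names only) for 20701 of 20766 probe sets with 1 symbol. Another 887 had several symbols and 895 had none listed. Differences (PVD and OLL minus whole animal) were fitted on all 22548 probe sets with limma 3.58.1 in R 4.3.3 (lmFit, eBayes), with Benjamini-Hochberg adjustment and calls at 0.05, two-sided. The code was tested on simulated data. A fold is a bound where no array of 1 group exceeded background. The genes and lists were chosen with earlier results of these data known. Named genes were all 10 regulators, the up to 3 largest called rises and falls of each related list, fixed markers and the nearest gene of each called regulator. The CGH-1 partners, eat-4, F49H12.4, ser-2, unc-16, egl-15, unc-32, xol-1, unc-64, vit-2, vit-6, col-19 and rme-2 were named after their values were seen. So were bli-1, nhr-23, lin-26, rol-6 and cpr-1. Alternatives covered scaling, dim filters, the variance model, probe sets per gene, the replicate block and left-out arrays. Same-numbered samples did not deviate together, so the numbers were not used as pairs.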

Additional observations from a re-analysis of the deposited data

How the results depend on the processing

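The count of called regulator probe sets (9 higher, 0 lower) ranged from 2 to 9 higher with 1 array left out and was 17 when arrays were centred on their bioB and bioC spikes (below, spike centring). By gene (6 higher, 0 lower) it ranged from 2 to 6 with 1 array left out. Under the other alternatives it stayed within 1.5 times, and 0 were called lower by limma throughout. For the 22548 probe sets the counts were 2099 higher and 964 lower. The higher count was 1192 on repeating quantile normalization, 1195 under cyclic loess, 10876 under spike centring, 4035 under array weights, and 3300 without both replicates 3. The lower count was 1952 with centring on medians, 100 under spike centring, 2767 with array weights and 1842 without both replicates 3. With 1 array left out they ranged from 577 to 2017 and from 208 to 1222. Of calls, 68.5% were higher, against 54.2% on repeating quantile normalization, 52.6% under cyclic loess, 43.1% with centring on medians and 99.1% under spike centring, which put the median of all probe sets at -0.23 and 1.05 in the last 2 cases, against -0.03. Related genes had 18 higher and 4 lower. The higher count was 8, 9, 76 and 33 after repeated quantile normalization, cyclic loess, spike centring and array weights, 10 without _s_at and _x_at probe sets, and 29 without both replicates 3. The lower count was 7 with centring on medians and 0 with spike centring. With 1 array left out they ranged from 1 to 20 and from 0 to 3. The dimmer cgh-1 probe set turned to -0.115 after repeated quantile normalization and -0.12 after cyclic loess, the brighter to 0.86 with spike centring, fox-1 192063_s_at to -0.0532 with centring on medians and to between -0.10 and 0.5313 with 1 array left out, and ife-1 to 0.0398 with spike centring. The cause was not tested.

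Same-numbered samples shared only a number: their deviations from the group means correlated at -0.05, -0.07 and -0.10. With the replicate block, 1224 probe sets were higher and 405 lower, 7 regulator probe sets and 4 regulator genes were higher, and related genes had 9 higher and 2 lower. Probe sets near background on the whole animal arrays (exc-7, unc-75, fox-1 and the dimmest of etr-1) limit what their differences can show.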
